A study of Mus musculus with 6 samples.

Results

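Astrocytes were followed in the postnatal mouse cortex through 35 genes that are known for their expression or function in these cells, Pla2g7 and Aqp4 among them, and that were matched by symbol. All 35 were found among the 24972 genes of the deposited table, and all 35 passed the filter on low values that left 15800 genes for testing. Cortices were dissected at postnatal day 7, and their RNA was sequenced in 3 wildtype libraries (Zmiz1f/f) and 3 libraries labelled Zmiz1-KO (Zmiz1f/f;Emx1Cre). Both groups carry the floxed Zmiz1 allele, in which Cre recombinase removes the marked stretch, and the Cre driven from Emx1 is carried by the second group alone, so the presence of Cre and the deletion cannot be told apart. Emx1 is active in the progenitors of the dorsal forebrain, from which the excitatory neurons and most astrocytes of the cortex descend, whereas microglia and vessel cells arise elsewhere. The labels do not say whether libraries of a group came from separate animals, and the methods count dissected cortices by genotype without naming animals, so p-values measure only the spread between these samples, which may be technical. One label speaks of isolated progenitor cells and another of whole cortex, and the markers of neurons, oligodendrocytes, microglia and endothelium were all present in all 6 libraries.

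Astrocytes clear glutamate from the synaptic cleft and turn it into glutamine, which is handed back to neurons. Their end-feet on blood vessels hold water channels and ion carriers, they are joined to each other by gap junctions, and they secrete proteins that promote or restrain the formation of synapses. In the mouse cortex they multiply and mature in the first weeks after birth, when lineage genes such as Fabp7 and Vim are still abundant beside genes of the mature cell. In whole tissue, fewer cells of a type and less RNA per cell cannot be told apart.

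The targeted gene was examined first. Zmiz1 encodes a nuclear co-regulator of transcription, and its normalized count was 8119, 7929 and 7461 in wildtype libraries 1, 2 and 3 and 9944, 9779 and 9660 in Zmiz1-KO libraries 1, 2 and 3. Zmiz1 was thus higher in each library labelled Zmiz1-KO than in any wildtype library, against the direction a deletion label implies, by a log2 fold change of 0.32 (SE 0.04, limma adjusted p = 0.00125). Fold changes here and below are Zmiz1-KO minus wildtype on the scale log2(normalized count + 1), and p-values were adjusted over all 15800 tested genes by the Benjamini-Hochberg method. The table gives a single value per gene and none per exon, so RNA that lacks the deleted exons was not separated, and every direction below is stated for libraries by their label. By qPCR, the authors report lower levels of Zmiz1, tenascin C (Tnc), Gria2 and Cplx3 in their Zmiz1-KO samples. Gria2 and Cplx3 were not examined here. In the libraries labelled Zmiz1-KO, Tnc was lower as well (log2 fold change -0.64, limma adjusted p = 2.86e-07). The labels themselves were not tested. Emx1, the homeobox gene from which Cre is driven, measured 818, 688 and 784 in wildtype against 532, 473 and 583 in the libraries labelled Zmiz1-KO. The groups did not overlap, and the log2 fold change was -0.53 (SE 0.09, limma adjusted p = 0.015), which missed the threshold of 0.05 without wildtype library 1 (0.0871), wildtype library 3 (0.0628) or Zmiz1-KO library 1 (0.0713) and without robust estimation (0.0755), within a range of 0.00202 to 0.0871 over its alternatives.

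A small group of astrocyte genes fell. At a limma adjusted p of 0.05 or less, 4 of 35 were called, beside 0.411% of all tested genes (65 of 15800), and all 4 had their lower values in libraries labelled Zmiz1-KO, a direction that 0.247% of all tested genes took (39 of 15800). The 4 genes were Pla2g7, Aqp4, Glul and Cst3. All 35 had been chosen with earlier results of these data known, so their share beside that of all tested genes is no independent support. None of the 35 was called higher by limma, beside 0.165% of all tested genes, although at an unadjusted p under 0.05, which 11% of all tested genes reached, 5 of 35 were higher (beside 5.13%) and 8 of 35 lower (beside 5.84%); limma-voom called the same 4 lower and none higher. Groups did not overlap for 11 of 35 genes, beside 16.3% of all tested genes. Of these 11, 7 had lower values under the Zmiz1-KO label (Pla2g7, Aqp4, Glul, Cst3, S100b, Slc1a3 and Nfib), beside 8.16% of all tested genes, and 4 were higher (Thbs1, Hepacam, Vim and Gfap), beside 8.1%. Calls depended on single libraries. Without Zmiz1-KO library 1 or Zmiz1-KO library 3, Pla2g7 was the 1 astrocyte gene called, while the count over all genes went from 65 to 17 and 12, and it was 30 without wildtype library 1 and 152 without Zmiz1-KO library 2.

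The 35 genes did not move as a block. Their median log2 fold change was -0.028, beside -0.00018 over all tested genes, and the estimates ran from -0.48 for Cyp4f14 to 0.36 for Cyp4f15. Estimates were below 0 for 20 of the genes and above 0 for 15. For 19 of 35 the estimate was smaller than 0.1 in size, as it was for 60.4% of all tested genes, and for 18 of 35 the whole 95% interval lay inside -0.2 to 0.2, beside 36.4% of all tested genes. The astrocyte genes were more abundant than the typical tested gene, with a median wildtype mean of 2937 against 726, and their median SE was 0.054 against 0.079, so a smaller fold change could be called in them. An exact permutation test of 3 libraries against 3, two-sided, cannot give a p below 0.1, and 11 of 35 genes reached that value. These are the same 11 whose groups did not overlap, beside 16.3% of all tested genes, so the count is not a second result.

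**Figure D1:**
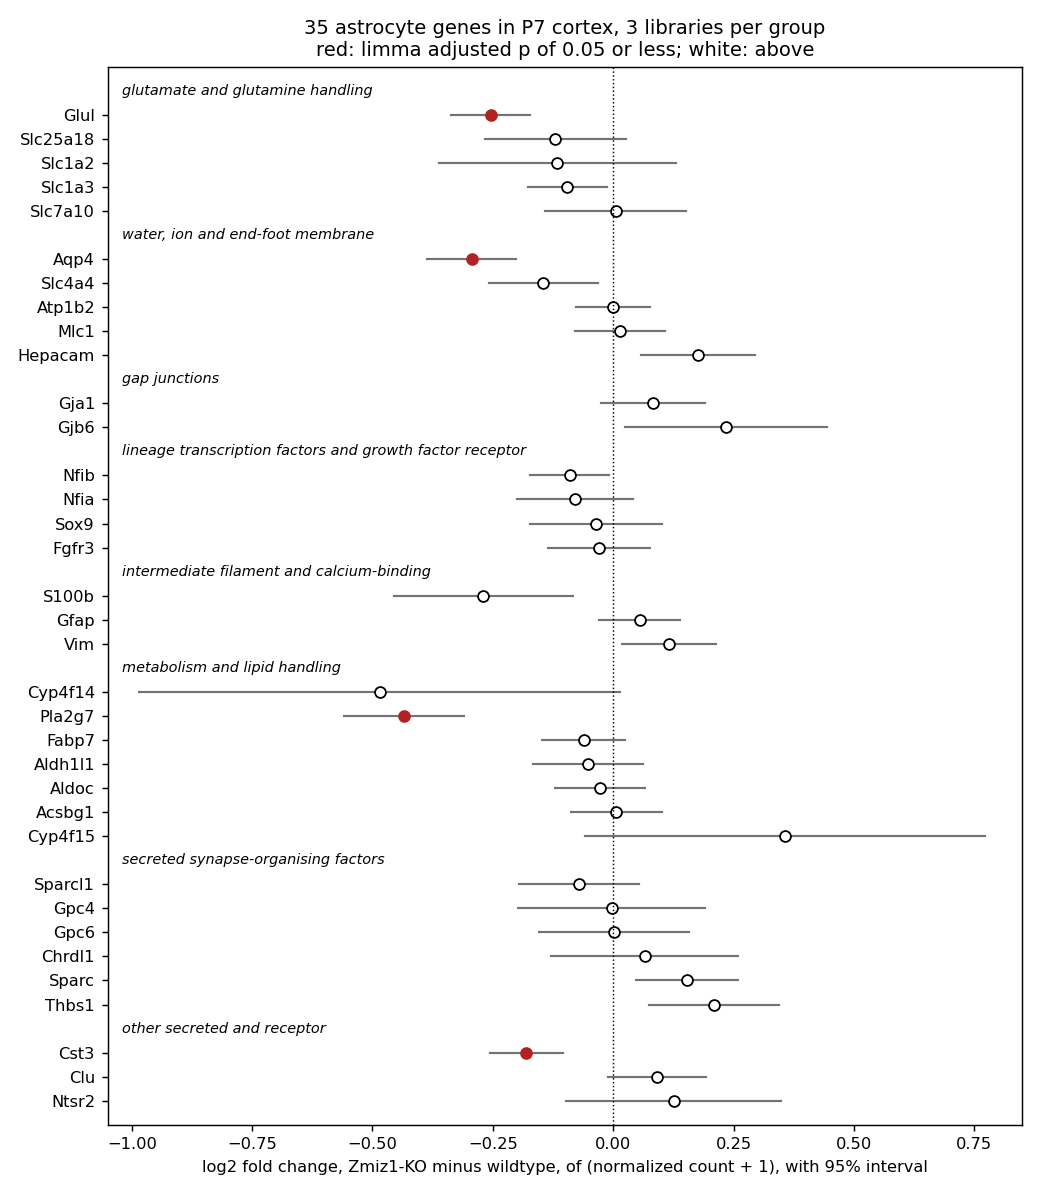
Log2 fold change (Zmiz1-KO minus wildtype, on normalized count + 1) of the 35 astrocyte genes by role, points with 95% intervals from limma, 3 libraries per group; red points mark a limma adjusted p of 0.05 or less. Pla2g7, Aqp4, Glul and Cst3 lie left of 0 and most others have intervals that include 0, the widest being that of Cyp4f14.

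Levels of the 35 genes were compared per kb of exon, with the exon lengths of GENCODE M21. The wildtype mean of the normalized count per kb was highest for Sparcl1 (12140), Cst3 (9616) and Fabp7 (9199), followed by Glul (4449). Gfap (1411), Aqp4 (862) and Pla2g7 (790) came 12th, 13th and 14th in this order. The lineage genes Nfib (389), Nfia (275) and Sox9 (235) lay lower on the same scale, and Cyp4f15 (32.4) and Cyp4f14 (27.8) were last. For 15 of the 34 pairs of neighbours in this order the ranges of the 3 wildtype libraries overlapped, so their order is not set apart from the spread. Within a gene the libraries differed little: the median coefficient of variation was 4.81% in wildtype and 4.28% in the libraries labelled Zmiz1-KO.

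Among the genes grouped under glutamate and glutamine handling, which include the neutral amino acid transporter Slc7a10, 1 of 5 was called. Glul encodes glutamine synthetase, which joins ammonia to glutamate, and is at chr1:153899944-153909723, forward strand, on GRCm38. Its normalized count was 15277, 14679 and 14392 in wildtype against 12386, 12825 and 11967 in the libraries labelled Zmiz1-KO. Every wildtype library lay above every library labelled Zmiz1-KO, and the mean fell from 14783 ± 452 to 12393 ± 429 (SD, n = 3 each). The log2 fold change was -0.25 (SE 0.039, 95% interval -0.34 to -0.17, limma adjusted p = 0.00542). The adjusted p of Glul was 0.0511 without Zmiz1-KO library 1 and 0.0973 without Zmiz1-KO library 3, in a range of 0.000561 to 0.0973 over 15 alternatives. Of the 75-base stretches in Glul transcripts, 6.63% also occur in transcripts of other genes, most of them the pseudogene Glns-ps1, and 3.49% of its exon bases lie opposite exons of genes on the other strand, from which these libraries, made with a kit that does not mark strand, cannot separate reads.

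Slc1a3 (GLAST), the glutamate transporter that is prominent in the immature cortex, measured 15555, 16520 and 15243 in wildtype against 15006, 14925 and 14347 in the libraries labelled Zmiz1-KO. The groups were apart by a narrow margin, with Zmiz1-KO library 1 closest to wildtype library 3. Its log2 fold change was -0.095 (95% interval -0.18 to -0.013) and did not pass the test (limma adjusted p = 0.365). Slc1a2 (GLT-1), the main glutamate transporter of the mature cortex, measured 27048, 31168 and 29036 in wildtype against 26101, 30236 and 24371 in the libraries labelled Zmiz1-KO. Here the groups overlapped, since Zmiz1-KO library 2 was above wildtype libraries 1 and 3. With an estimate of -0.12 and a wide interval of -0.36 to 0.13 (limma adjusted p = 0.75), a fall like that of Glul lies inside the interval, and the missed threshold does not show that the groups were alike. With a library left out the Slc1a2 estimate ran from -0.20 without Zmiz1-KO library 2 to -0.048 without Zmiz1-KO library 3 and was not called. The mitochondrial glutamate carrier Slc25a18 and the small neutral amino acid transporter Slc7a10 had estimates of -0.12 and 0.0052, with intervals that include 0.

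Among the membrane genes of water, ions and end-feet, 1 of 5 was called. Aqp4, the water channel of astrocyte end-feet, lies at chr18:15389496-15410982, reverse strand. The normalized count of Aqp4 was 5615, 5150 and 5359 in wildtype against 4355, 4531 and 4258 in the libraries labelled Zmiz1-KO. All wildtype libraries exceeded all libraries labelled Zmiz1-KO, and the group mean fell from 5375 ± 233 to 4382 ± 138 (SD, n = 3 each), which is 81.5% of wildtype. The log2 fold change was -0.29 (SE 0.044, 95% interval -0.39 to -0.20, limma adjusted p = 0.00498). It was 0.0511 without Zmiz1-KO library 1 and 0.0818 without Zmiz1-KO library 3, in a range of 0.00149 to 0.0818 over 15 alternatives. No 75-base stretch of Aqp4 transcripts occurs in another gene.

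Hepacam (GlialCAM), a cell adhesion protein that binds the membrane protein Mlc1 at astrocyte junctions, measured 1544, 1707 and 1687 in wildtype against 1927, 1877 and 1772 in the libraries labelled Zmiz1-KO. All 3 libraries labelled Zmiz1-KO were above all wildtype libraries, opposite to Aqp4, yet the estimate of 0.18 (95% interval 0.057 to 0.29) did not pass (limma adjusted p = 0.236). Its partner Mlc1 had an estimate of 0.013 with an interval of -0.08 to 0.11. The sodium bicarbonate cotransporter Slc4a4 had -0.14 (-0.26 to -0.032, limma adjusted p = 0.31), and the sodium pump subunit Atp1b2 had -0.00038 (-0.076 to 0.076). The direction of Atp1b2 turned under upper-quartile scaling and limma-voom, as did that of Gpc4, and no other astrocyte gene changed sign with a scaling. The end-foot and dystrophin complex, in which Aqp4 is anchored, was represented by 14 other genes. Of these, limma called none (4 had an unadjusted p under 0.05), 8 estimates were above 0 and 6 below, and the median was 0.025. Dystrophin itself (Dmd) had -0.21 (95% interval -0.33 to -0.093, limma adjusted p = 0.151), and the most abundant gene of the list, agrin (Agrn), had -0.14 (-0.22 to -0.052, limma adjusted p = 0.191). Both had groups that did not overlap, with lower values in the libraries labelled Zmiz1-KO, while dystrobrevin beta (Dtnb, 0.13, limma adjusted p = 0.306) and the laminin chain Lamb2 (0.17, limma adjusted p = 0.28) had higher values that did not overlap.

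Neither of the 2 gap junction genes passed limma's test, and 1 had an unadjusted p under 0.05. Gja1 (connexin 43) had an estimate of 0.083 (95% interval -0.025 to 0.19) and Gjb6 (connexin 30) of 0.23 (0.024 to 0.44, limma adjusted p = 0.385). For both, the ranges of the groups overlapped. Among 10 other connexins and pannexins limma called none (3 had an unadjusted p under 0.05), 3 estimates were above 0 and 7 below, with a median of -0.023. Gjb2 (connexin 26) had 0.28, Gjd2 had 0.15 and Gjc1 (connexin 45) had -0.25, each with groups that did not overlap.

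Transcription factors and a receptor of the astrocyte lineage differed little, with 0 of 4 called by limma and 1 of 4 at an unadjusted p under 0.05. Sox9, which acts early in gliogenesis, measured 1012, 974 and 930 in wildtype against 919, 998 and 927 in the libraries labelled Zmiz1-KO. These ranges overlapped, with Zmiz1-KO library 2 second highest of the 6, and the estimate was -0.036 (95% interval -0.17 to 0.10, limma adjusted p = 0.898). Nfib, a nuclear factor I protein that promotes glial differentiation, measured 5896, 5796 and 5744 in wildtype against 5452, 5549 and 5374 in the libraries labelled Zmiz1-KO. Each library labelled Zmiz1-KO was below each wildtype library, but the estimate was only -0.091 (95% interval -0.17 to -0.0092) and did not pass (limma adjusted p = 0.386). For the related Nfia it was -0.079 (-0.20 to 0.041), and for the growth factor receptor Fgfr3 it was -0.029 (-0.13 to 0.076), while limma called none of the 4 other FGF receptors (1 had an unadjusted p under 0.05), 1 of which had an estimate above 0 and 3 below, with a median of -0.066. Of 19 other transcription factors linked to gliogenesis, 1 was called. Lhx2, a LIM homeobox factor of cortical progenitors, measured 2327, 2198 and 2281 in wildtype against 1887, 1814 and 2002 in the libraries labelled Zmiz1-KO. It was lower in all 3 of the latter (-0.26, SE 0.052, limma adjusted p = 0.0411), and the call was lost without wildtype library 1 (0.143), wildtype library 3 (0.107), Zmiz1-KO library 1 (0.2), Zmiz1-KO library 2 (0.0618) or Zmiz1-KO library 3 (0.085) and without robust estimation (0.103), in a range of 0.0143 to 0.2. The median of the 19 was 0.0028, with 10 above 0 and 9 below. At an unadjusted p under 0.05, 1 was higher and 3 were lower, and groups did not overlap for 2 with higher and 4 with lower values.

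The cytoskeletal and calcium-binding markers took both directions, with 0 of 3 called by limma and 2 of 3 at an unadjusted p under 0.05, beside 11% of all tested genes. Gfap, the intermediate filament protein by which astrocytes are most often stained, measured 6031, 5991 and 5826 in wildtype against 6380, 6101 and 6060 in the libraries labelled Zmiz1-KO. The groups were separated by the small gap between wildtype library 1 and Zmiz1-KO library 3, and the estimate was 0.055 (95% interval -0.029 to 0.14, limma adjusted p = 0.662). Vim (vimentin), the intermediate filament of immature astrocytes that fibroblasts and endothelium also make, measured 2840, 3004 and 2967 in wildtype against 3327, 3111 and 3118 in the libraries labelled Zmiz1-KO. All of the latter were higher, with an estimate of 0.12 (0.019 to 0.21) that did not pass (limma adjusted p = 0.351). S100b, a calcium-binding protein that is shared with oligodendrocyte precursors, measured 503, 522 and 527 in wildtype against 420, 472 and 398 in the libraries labelled Zmiz1-KO. S100b was lower in all 3, with an estimate close to that of Glul (-0.27, 95% interval -0.46 to -0.084), but its larger SE of 0.088 left it above the threshold (limma adjusted p = 0.24). Of the oligodendrocyte lineage markers, 1 of 14 was called by limma and 12 of 14 had estimates below 0 (median -0.18), the sign of S100b. At an unadjusted p under 0.05, 7 were lower and none higher, groups did not overlap for 6 with lower values and for none with higher, and their sum was 24999, 28042 and 25974 in wildtype against 24291, 23707 and 23149 in the libraries labelled Zmiz1-KO. Gpr17 was the most abundant of these markers in the libraries labelled Zmiz1-KO (-0.15, limma adjusted p = 0.216), none was at 0 in any library, and Olig1, the most abundant in wildtype, was called lower (-0.32, SE 0.043, limma adjusted p = 0.00172), with 4515, 4795 and 4708 in wildtype against 3817, 3760 and 3614 in the libraries labelled Zmiz1-KO. The part of the oligodendrocyte lineage in the S100b values was not tested.

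**Figure D2:**
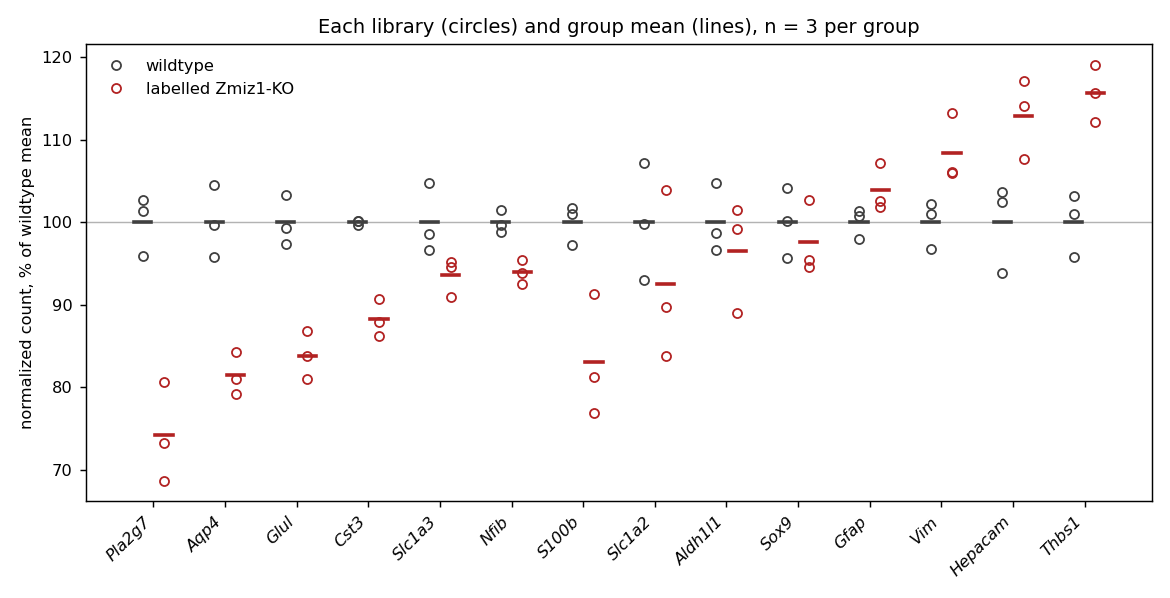
Normalized count of 14 astrocyte genes in each library (circles) as a percentage of the wildtype mean of that gene, with group means as lines, 3 libraries per group. Means of the libraries labelled Zmiz1-KO run from 74.2% for Pla2g7 to 116% for Thbs1, and circles of both groups overlap for Slc1a2, Aldh1l1 and Sox9.

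Of the genes of metabolism and lipid handling, 1 of 7 was called. Pla2g7 encodes a secreted phospholipase A2 that cleaves platelet-activating factor and oxidized phospholipids, and lies at chr17:43568098-43612201, forward strand. Its normalized count was 2201, 2357 and 2326 in wildtype against 1679, 1850 and 1576 in the libraries labelled Zmiz1-KO. No values overlapped, and Zmiz1-KO library 3 was the lowest. The mean went from 2294 ± 82.8 to 1701 ± 138 (SD, n = 3 each), or 74.2% of wildtype, with a log2 fold change of -0.43 (SE 0.059, 95% interval -0.56 to -0.31, limma adjusted p = 0.00203). Under 15 alternatives the adjusted p of Pla2g7 stayed between 0.000168 and 0.033. Of the exon bases of Pla2g7, 11.0% lie opposite exons on the other strand, and of its 75-base stretches, 5.12% are shared with other transcripts, mainly those of 1700071M16Rik on the opposite strand, which itself measured only 34.7, 49.7 and 43.2 in wildtype against 16.1, 24.7 and 28.5 in the libraries labelled Zmiz1-KO.

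Aldh1l1, an enzyme of folate metabolism that is used as a general astrocyte marker, measured 2863, 2641 and 2698 in wildtype against 2710, 2775 and 2433 in the libraries labelled Zmiz1-KO. The groups overlapped, with Zmiz1-KO library 3 apart below the rest, and the estimate of -0.052 (95% interval -0.17 to 0.063, limma adjusted p = 0.798) became 0.0055 without that library. The interval reaches from a fall smaller than the estimate for Cst3 to a small rise. Aldolase C (Aldoc), the acyl-CoA synthetase Acsbg1 and the fatty acid binding protein Fabp7 had estimates of -0.028, 0.0067 and -0.062, and all 3 intervals included 0 and lay inside -0.2 to 0.2. The cytochrome P450 genes of the 4F family, whose products hydroxylate leukotrienes and other lipids, had low counts. Cyp4f14 measured 57.9, 73.9 and 70.1 in wildtype against 42.6, 41.1 and 61.3 in the libraries labelled Zmiz1-KO. Cyp4f15 measured 84.2, 77.8 and 59.8 in wildtype against 83.4, 102 and 97.3 in the libraries labelled Zmiz1-KO. Both overlapped between groups, and their estimates of -0.48 (-0.98 to 0.015) and 0.36 (-0.059 to 0.77), opposite in sign, did not pass (limma adjusted p = 0.475 and 0.54). Among 13 related genes, the other platelet-activating factor hydrolases, its receptor Ptafr, the acyltransferase Lpcat2 and further Cyp4f genes, 10 were tested, limma called none (0 at an unadjusted p under 0.05), 2 estimates were above 0 and 8 below, and the median was -0.046. Pafah1b1, the most abundant of them, had -0.051 (95% interval -0.13 to 0.032).

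Of the 6 secreted factors that organise synapses limma called 0, and 2 had an unadjusted p under 0.05. Thbs1 (thrombospondin 1), an astrocyte signal for the formation of excitatory synapses, measured 823, 887 and 868 in wildtype against 994, 1024 and 964 in the libraries labelled Zmiz1-KO. Every library labelled Zmiz1-KO was higher, with an estimate of 0.21 (95% interval 0.075 to 0.34) that did not pass (limma adjusted p = 0.216). Sparc, which restrains synapse formation and is abundant in fibroblasts and vessels, had 0.15 (0.047 to 0.26, limma adjusted p = 0.249), and it passed, at 0.0426, without wildtype library 2, in a range of 0.0426 to 0.597. Its relative Sparcl1 (hevin), the astrocyte gene with the highest level per kb, had -0.071 (-0.20 to 0.054). The glypicans Gpc4 and Gpc6, which recruit glutamate receptors to synapses, had -0.0034 (-0.20 to 0.19) and 0.0015 (-0.15 to 0.16), and Chrdl1, which favours mature synaptic receptors, had 0.065 (-0.13 to 0.26). Of 14 other genes (glypicans, thrombospondins, SPARC relatives and the chordins Chrd and Chrdl2), 13 were tested, all but Chrdl2. Of these estimates, 7 were above 0 and 6 below, with a median of 0.039. Gpc3 was called higher (0.43, SE 0.081, limma adjusted p = 0.0274) with 567, 681 and 690 in wildtype against 828, 876 and 891 in the libraries labelled Zmiz1-KO, which did not overlap. The Gpc3 call was lost without robust estimation (0.102) and without wildtype library 1 (0.11), Zmiz1-KO library 1 (0.0886) or Zmiz1-KO library 3 (0.204), in a range of 0.00765 to 0.204.

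Markers of meningeal fibroblasts had estimates of the same sign as Thbs1, Sparc, Vim, Gjb6 and Gpc3. Of these markers 1 of 9 was called by limma, 9 of 9 had estimates above 0 (median 0.30), 7 had groups that did not overlap, and their sum was 18769, 21372 and 22487 in wildtype against 24602, 26932 and 24336 in the libraries labelled Zmiz1-KO. The most abundant of them, the growth factor Igf2, had 0.30 (limma adjusted p = 0.437), and none was at 0 in any library. Col1a2, a chain of type I collagen, was called higher (0.32, SE 0.047, limma adjusted p = 0.00464) with 3921, 3929 and 4348 in wildtype against 4926, 5189 and 5059 in the libraries labelled Zmiz1-KO. The groups did not overlap, and without Zmiz1-KO library 3 the adjusted p was 0.0688, in a range of 0.000957 to 0.0688. The part of meningeal RNA in the values of Thbs1, Sparc, Vim, Gjb6 and Gpc3 was not tested.

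Among the other secreted proteins and receptors, Cst3 was called. Cst3 encodes cystatin C, an inhibitor of cysteine proteases that microglia also secrete, and lies at chr2:148871722-148875692, reverse strand. It measured 12195, 12141 and 12186 in wildtype against 10489, 11046 and 10700 in the libraries labelled Zmiz1-KO. The wildtype libraries were nearly alike and all above the others, with means of 12174 ± 28.8 and 10745 ± 281 (SD, n = 3 each). The fall was the smallest of the 4 called, at -0.18 (SE 0.036, 95% interval -0.26 to -0.10, limma adjusted p = 0.0385), and the least secure: it passed in 9 of 15 alternatives and was lost without robust estimation (0.0987) and without wildtype library 1 (0.0871), wildtype library 2 (0.0642), wildtype library 3 (0.111), Zmiz1-KO library 1 (0.251) or Zmiz1-KO library 3 (0.252), in a range of 0.00967 to 0.252. Microglia markers had 5 estimates of 12 above 0 and 7 below (median -0.044), with none called by limma, 2 at an unadjusted p under 0.05 and a sum of 6656, 6691 and 6308 in wildtype against 6576, 6465 and 6285 in the libraries labelled Zmiz1-KO. Clusterin (Clu) had an estimate of 0.09 (-0.012 to 0.19), and the neurotensin receptor Ntsr2 one of 0.13 (-0.098 to 0.35).

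Seen library by library, the median difference from the wildtype mean, in log2, over the 31 astrocyte genes that were not called was -0.019, 0.038 and -0.030 in wildtype against 0.016, 0.0061 and -0.047 in the libraries labelled Zmiz1-KO. Wildtype library 2 was the highest and Zmiz1-KO library 3 the lowest, and these ranges overlapped. In share of all normalized counts, the 35 genes made up 0.632%, 0.661% and 0.619% in wildtype against 0.609%, 0.632% and 0.593% in the libraries labelled Zmiz1-KO, and these ranges overlapped because Zmiz1-KO library 2 exceeded wildtype library 3.

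A wider list of 40 other astrocyte genes had 27 estimates above 0, 13 below and a median of 0.053. At an unadjusted p under 0.05, 7 were higher and 4 lower, and groups did not overlap for 8 with higher and 4 with lower values. Its summed count was 79750, 82012 and 78487 in wildtype against 81160, 80513 and 79892 in the libraries labelled Zmiz1-KO, and these ranges overlapped. Dio2, which converts thyroxine to active thyroid hormone in astrocytes, was the 1 gene called. Dio2 measured 1793, 1527 and 1519 in wildtype against 1161, 1239 and 1058 in the libraries labelled Zmiz1-KO. All of the latter were lower, with a log2 fold change of -0.48 (SE 0.074, limma adjusted p = 0.00985) that missed the threshold without robust estimation (0.0538) and without Zmiz1-KO library 1 (0.0603) or Zmiz1-KO library 3 (0.0818), in a range of 0.000967 to 0.0818. Slco1c1, which carries thyroxine into astrocytes and across the endothelium, had -0.20 (95% interval -0.31 to -0.077, limma adjusted p = 0.183), and the glycine transporter Slc6a9 had 0.18 (0.066 to 0.30, limma adjusted p = 0.216), with all values of the libraries labelled Zmiz1-KO above wildtype. Of 30 reactive astrocyte genes, which these cells switch on after injury, 25 passed the filter. Their estimates were above 0 for 18 and below for 7, limma called none (5 had an unadjusted p under 0.05), and the median was 0.20. S100a10, the most abundant of them, had 0.0033, and Serpina3n, a marker of most reactive states, -0.18 (-0.50 to 0.14). Groups did not overlap for Serping1 (0.36, limma adjusted p = 0.232), Srgn (0.53, 0.301) and S1pr3 (0.20, 0.378), all with higher values, and for Ptx3 with lower values (-0.52, 0.271). The sum of the list was 8527, 8453 and 8822 in wildtype against 8575, 9605 and 8780 in the libraries labelled Zmiz1-KO. Zmiz1-KO library 2 was thus above the other 5, as it was for the interferon-induced genes Iigp1 (121, against 12.3 to 44.6) and Gbp2 (162, against 41.2 to 74.0). Ugt1a1 was listed at 0 in all 6 libraries.

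Other cell types were read through their markers as well. Radial glia and progenitor markers had 6 estimates above 0 and 4 below (median 0.043), and their sum of 10401, 11055 and 10598 in wildtype against 9296, 9981 and 9503 in the libraries labelled Zmiz1-KO was lower in the latter, through its most abundant gene, Tnc. Without Tnc the other 9 markers summed to 6279, 6861 and 6316 in wildtype against 6609, 7351 and 6758 in the libraries labelled Zmiz1-KO, and these ranges overlapped. Tenascin C (Tnc), a matrix protein of radial glia and young astrocytes, measured 4122, 4194 and 4282 in wildtype against 2687, 2630 and 2745 in the libraries labelled Zmiz1-KO. With groups far apart, a log2 fold change of -0.64 (SE 0.043) and a limma adjusted p of 2.86e-07, it fell further than any of the 4 called astrocyte genes. Neuron markers had 2 estimates above 0 and 8 below (median -0.037, most abundant Tubb3 at -0.039). Endothelial markers had 6 above and 4 below (0.027, Cldn5 at 0.11), and pericyte and smooth muscle markers 3 above and 6 below (-0.028, Rgs5 at -0.15), with limma calling none in these 3 lists (2 genes in each had an unadjusted p under 0.05). Without Rgs5, the sum of the 8 other pericyte and smooth muscle markers was higher in every library labelled Zmiz1-KO. It was 6355, 6203 and 6297 in wildtype against 6681, 6383 and 6588 in the libraries labelled Zmiz1-KO. With Rgs5 included the sums overlapped, as did those of neuron markers without Tubb3 and endothelial markers without Cldn5. Choroid plexus and ependyma markers differed by library and not by group: their sum was 842, 9129 and 7072 in wildtype against 3894, 1014 and 5542 in the libraries labelled Zmiz1-KO, mostly through Ttr, with 4 estimates above 0, 7 below, a median of -0.038 and none called by limma or at an unadjusted p under 0.05.

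**Figure D3:**
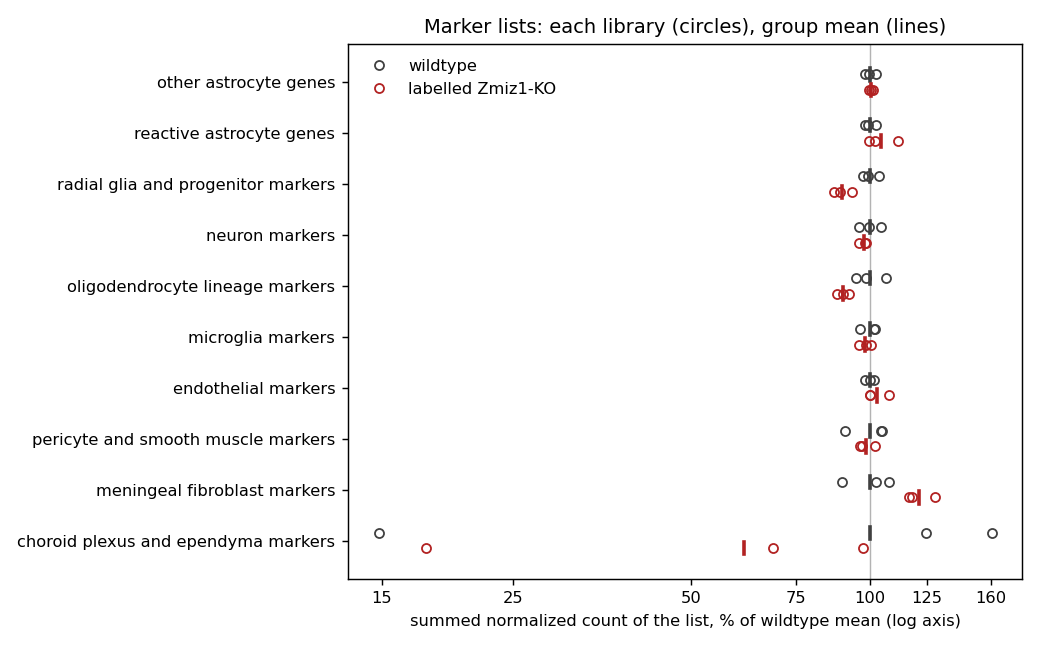
Summed normalized count of each marker list in each library (circles) as a percentage of its wildtype mean, on a log axis, with group means as lines, 3 libraries per group. The sums of the libraries labelled Zmiz1-KO average 101% for the other astrocyte genes, 90.0% for the oligodendrocyte lineage and 121% for meningeal fibroblasts, and the choroid plexus list varies most between libraries.

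Promoter sequence was examined for what the astrocyte genes share beside their values. The 250 bases before the RefSeq start (GRCm38.p6) were present for 26 of the 35 genes and for 27025 genes in all, and the first listed start of each gene was searched on both strands for 3 motifs chosen with the values known. TTGGC, the half-site of nuclear factor I proteins such as Nfia and Nfib, which on the other strand overlaps the CCAAT box, was in 13 of 26 astrocyte genes and 41.9% of all promoters. TTCNNNGAA, the form bound by STAT proteins, was in 4 of 26 (Acsbg1, Ntsr2, Pla2g7 and Slc1a3) and 7.18% of all promoters. GGGCGG, the GC box, was in 11 of 26, Pla2g7, Glul and Cst3 included, and in 32.9% of all promoters. A match is a description of letters and was not tested for binding. The 3 windows of genes with lower, non-overlapping values in the libraries labelled Zmiz1-KO are shown because no exon of the gene itself reaches into them, 5′ to 3′ on the strand of the gene, with the 3 motifs in capitals.
Glul, chr1:153899679-153899928 (forward strand): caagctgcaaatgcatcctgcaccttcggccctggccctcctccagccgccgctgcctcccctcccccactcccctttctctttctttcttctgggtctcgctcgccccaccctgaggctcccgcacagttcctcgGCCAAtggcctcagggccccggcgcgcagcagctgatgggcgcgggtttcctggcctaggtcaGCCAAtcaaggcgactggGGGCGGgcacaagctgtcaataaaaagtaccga
S100b, chr10:76253586-76253835 (forward strand): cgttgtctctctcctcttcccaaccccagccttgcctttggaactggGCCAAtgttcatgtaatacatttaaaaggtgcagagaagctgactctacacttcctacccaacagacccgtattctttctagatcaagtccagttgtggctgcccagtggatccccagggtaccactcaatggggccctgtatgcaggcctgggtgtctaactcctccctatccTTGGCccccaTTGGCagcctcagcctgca
Slc1a3, chr15:8710808-8711057 (reverse strand): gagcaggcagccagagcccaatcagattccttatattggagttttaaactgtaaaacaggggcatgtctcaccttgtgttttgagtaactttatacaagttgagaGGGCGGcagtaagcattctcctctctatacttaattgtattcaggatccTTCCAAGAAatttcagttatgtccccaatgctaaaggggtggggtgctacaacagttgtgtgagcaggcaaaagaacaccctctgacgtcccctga
The Glul window holds 2 half-sites, both as GCCAA, and 1 GC box close to the start, and GENCODE places an antisense transcript of Teddm2 across it. The S100b window holds 3 half-sites, 2 of them next to each other, and the Slc1a3 window 1 STAT form and 1 GC box. The window of Gfap, whose values were higher, is also free of its own exons, holds none of the 3 motifs and is not printed.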

How the data were processed

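Reads from TruSeq v2 libraries were aligned by the authors to mm10 with the STAR aligner, and gene counts were normalized with DESeq2, both in Illumina BaseSpace; tool versions and the annotation are not given in the sources used here. The deposited values are normalized counts, a signal that is never negative. Low values lay near multiples of a step of 1.83 to 2.11 in each library and high values did not, so whole reads were not recovered. The sum of values divided by this step estimated 15495006 to 17858811 counted reads per library.

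A gene was tested if its value reached 10 in 3 or more libraries. The test was run on log2(value + 1), without further scaling, with limma (version 3.58.1, R version 4.3.3) using a trended and robust variance estimate, on all 6 libraries without covariates. A gene was called at a Benjamini-Hochberg adjusted p of 0.05 or less over all tested genes, and the 95% intervals come from the same fit. The procedure was tested on simulated data. Gene positions, exon lengths and shared 75-base stretches come from GENCODE (M21, GRCm38), and promoters from RefSeq.

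The 35 genes and the 18 lists beside them were chosen with earlier results of these data known. Values of every library are given for Aqp4, Pla2g7, Gfap, Aldh1l1, Slc1a2, Slc1a3, Glul, Sox9, called genes, genes whose groups did not overlap at an unadjusted p under 0.05, the 3 largest fold changes, Zmiz1, Emx1 and the called genes of the lists described. The alternatives were a pseudocount of 0.1 or 10, no filter, at least 10 in every library, median-ratio or upper-quartile scaling, limma-voom, no robust estimation, the replicate number as a block, an adjusted p of 0.1 and each library left out in turn. Plots were made in Python 3.11.15 with matplotlib 3.10.9.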

Additional observations from a re-analysis of the deposited data

How the results depend on the processing

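The 65 genes called over all tested genes became 17 without robust estimation, 106 at an adjusted p of 0.1, and 12 to 152 with a library left out, and the cause was not tested. The 4 astrocyte genes called were the same 4 under 9 of the 10 alternatives that keep all libraries, and 3 of them without robust estimation. With a library left out the count was 1 to 4, lowest without Zmiz1-KO library 1 or 3, when Pla2g7 was the gene called, and without wildtype library 2 the 4 included Sparc in place of Cst3. The median log2 fold change of the 35 genes ran from -0.058 without wildtype library 3 to 0.0037 without Zmiz1-KO library 3, less than the spread between wildtype libraries away from -0.028. Aldh1l1, not called at -0.052, ran from -0.089 without Zmiz1-KO library 2 to 0.0055 without Zmiz1-KO library 3, where its sign turned. With a library left out, the sign also turned for Atp1b2, Gpc4, Gpc6, Slc7a10, Fgfr3, Aldoc, Mlc1 and Acsbg1, 1 to 5 genes at a time, so the 20 estimates below 0 and 15 above 0 depend on single libraries.

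The replicate numbers pair nothing in the labels, and deviations from the group means correlated at -0.0051, -0.11 and -0.0063 between libraries of the same number. With the number as a block 168 genes were called, and among the 35 astrocyte genes no call was lost or gained.

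The 3 libraries per group limit the precision: among the astrocyte genes that were not called, the 95% intervals of Slc1a2, Cyp4f14, Cyp4f15, S100b, Gjb6, Ntsr2, Thbs1, Hepacam, Slc25a18, Chrdl1, Sparc and Slc4a4 include changes as large as that called in Glul. Depth limits the genes with low counts, such as Cyp4f14, and depth per gene is known only as an estimate. Counts of non-overlapping groups and of estimates above or below 0 rest on the same 6 libraries and give no independent support.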
